A study of Mus musculus with 15 samples.

Results

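The S100 alarmins and calcium-binding proteins S100a8, S100a9, S100a4, S100a6, S100a10 and S100a11 were taken by symbol, 6 of the 33696 genes counted in single cells of mouse aortas. They were read in cells with 200 to 7000 detected genes and at most 25% mitochondrial counts, which kept 128019 of 130551 cells. The study asked how aging and the senolytic flavonol fisetin change the aorta of male and female C57BL/6N mice. Young mice were given vehicle (Y VEH) or fisetin (Y FIS), and old mice likewise (O VEH, O FIS). Old mice were 27 months of age, and young mice 3 months by the labels and 6 months by the study's methods. Fisetin was given by gavage at 100 mg/kg/day for 1 week, with 2 weeks off and 1 further week on, and control mice received the carrier on the same schedule. Libraries F1 and F2 of a group came from females and M1 and M2 from males, 4 per group except O VEH, which lacked M2 and had 3. Each library pooled aortas of 3 mice by its label and of 2 to 3 mice by the study's methods, stripped of perivascular fat, digested and sorted for viable cells. The mice were unmodified, so no transgene or deletion applied. A library is the replicate here, and since no label says how the pools were composed beyond sex and treatment, tests measure the spread between pools.

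S100 proteins are small dimers, most but not all of which bind calcium and then attach to other proteins. S100a8 and S100a9 form calprotectin, which fills the cytosol of neutrophils and acts on Toll-like receptor 4 and the receptor Ager once outside the cell. S100a4 binds non-muscle myosin in motile cells, S100a6 is the growth-linked calcyclin, S100a10 is the light chain that carries annexin 2 to membranes, and S100a11 pairs with annexin 1.

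All of them lie on chromosome 3. In GRCm39 the annotated genes were S100a4 (90511074 to 90513354, + strand), S100a6 (90520140 to 90535843, +), S100a8 (90567118 to 90578128, +), S100a9 (90599931 to 90603071, − strand), S100a11 (93414382 to 93435293, +) and S100a10 (93462213 to 93474510, +). S100a8 and S100a9 stood 21.8 kb apart and on opposite strands, and S100a11 began 2811 kb beyond S100a9. Promoter windows are shown for both calgranulins, whose levels moved together, and for S100a4 as a neighbour with another distribution. They run from base -250 to base -101 before RefSeq's start, 5′ to 3′ on the gene's strand. For S100a8 that start lies within the gene as annotated above, whose bounds include a longer transcript, and the S100a11 start likewise. The letters are RefSeq's (GRCm38.p6 table), each with a single exact match on GRCm39 that gave its position (chr3:90576128-90576277, + strand, for S100a8, chr3:90603129-90603278, − strand, for S100a9 and chr3:90510827-90510976, + strand, for S100a4). Capitals mark TTNNGNAA, a form of the C/EBP motif, on either strand, and both marks in S100a9 match as the reverse complement.
S100a8: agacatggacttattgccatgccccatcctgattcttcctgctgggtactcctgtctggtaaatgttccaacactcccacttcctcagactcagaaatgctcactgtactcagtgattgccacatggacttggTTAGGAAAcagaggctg
S100a9: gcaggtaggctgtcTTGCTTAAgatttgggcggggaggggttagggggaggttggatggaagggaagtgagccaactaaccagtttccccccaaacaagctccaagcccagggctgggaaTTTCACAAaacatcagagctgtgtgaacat
S100a4: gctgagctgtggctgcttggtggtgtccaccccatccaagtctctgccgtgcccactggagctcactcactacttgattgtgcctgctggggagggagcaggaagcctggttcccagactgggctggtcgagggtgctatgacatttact
On either strand of the full 250 bases, TTNNGNAA matched S100a8 at -117 and S100a9 at -236 and -130, and had no match in S100a4, S100a6 or S100a11. S100a10 had no promoter entry and was not searched for any motif. It occurs in 36.8% of 32851 promoters of the same length, so a match is common. TGANTCA, an AP-1 site (6.75% of promoters), matched S100a11 at -136 and -38. TATAAA (12.4%) matched S100a8 at -30 and S100a4 at -31, and GAGGAAGT, an ETS core (2.44%), matched S100a8 at -172.

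Cell types were gated by markers that included no member. Of the kept cells 114271 (89.3%) were gated, 1684 of them as neutrophils. All gated cells but 19 adipocytes and 23 adrenal cortex cells fell in the 15 types used here. Libraries held 48272675 to 73722809 molecules (unique molecular identifiers, UMIs) in 6372 to 14805 cells, and any pair of libraries shared 8 to 51 cell barcodes. Levels are UMIs scaled to a total of 1e+06 (CPM) of a library's cells of that type, given where it had at least 10 such cells. Y FIS M1 and Y FIS M2 stood apart, with 0 gated neutrophils among 14805 and 8726 cells, which allows gated shares of up to 0.0203% and 0.0344%. Their myeloid shares were 0.257% and 0.195%, against 2.65% to 11.9% in the other libraries. In Y FIS M1 98.2% of 113 S100a8 UMIs lay in ungated cells, so neutrophils outside the gate are not excluded.

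S100a8 and S100a9 were neutrophil RNAs. S100a8 in neutrophils measured 34046, 56528, 59552 and 59874 CPM in the Y VEH libraries (in the order F1, F2, M1, M2), 43617 and 45990 CPM in the Y FIS females, 117947, 48294 and 65821 CPM in the O VEH libraries (F1, F2, M1) and 98682, 79620, 70279 and 59146 CPM in the O FIS libraries. Values by library are given in this order throughout. O VEH F1 was the highest library and Y VEH F1 the lowest. O VEH overlapped Y VEH and O FIS, and both Y FIS libraries lay below all old ones. The mean was 64569 ± 23086 CPM (SD, n = 13) for S100a8 and 80109 ± 22679 CPM (n = 13) for S100a9. Gated neutrophils held 76.8% to 99.2% of the S100a9 UMIs of the 13 libraries that had them. Neutrophil levels did not pass the test between O VEH and Y VEH, at 0.70 on the log2 scale (SE 0.35, adjusted p = 0.811, edgeR's quasi-likelihood test with Benjamini-Hochberg adjustment) for S100a8 and 0.55 (SE 0.30, adjusted p = 0.863, edgeR) for S100a9, where 0.0681% of neutrophil genes were called.

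**Figure D1:**
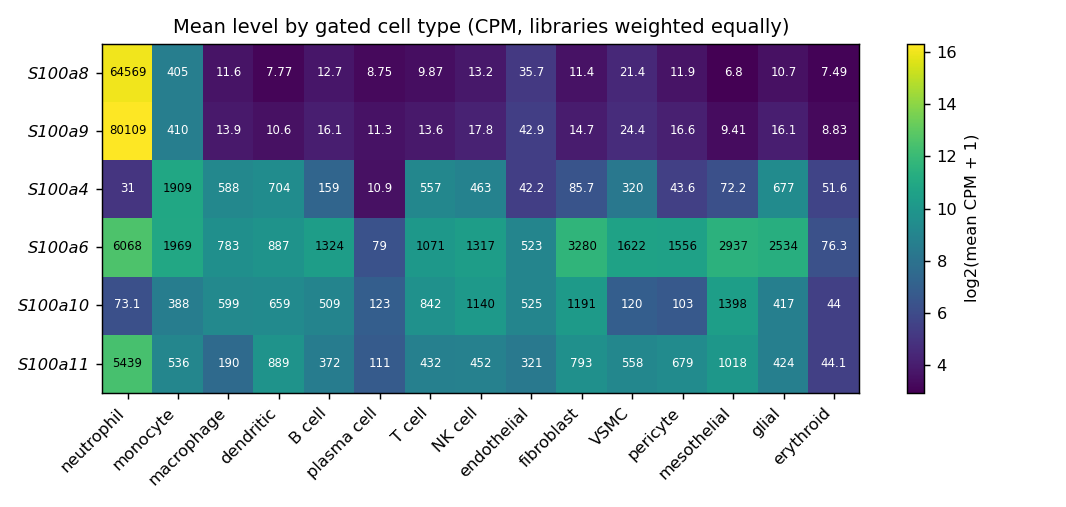
Mean level of the 6 S100 genes in the 15 gated cell types; rows are genes, columns are types, numbers in the cells are mean CPM over libraries and colour is log2(mean CPM + 1). S100a8 and S100a9 are brightest in neutrophils (64569 and 80109 CPM), whereas S100a6, S100a10 and S100a11 are seen in many types and S100a4 is brightest in monocytes (1909 CPM).

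Monocytes had the next highest mean, at 405 ± 1255 CPM for S100a8 and 410 ± 1370 CPM for S100a9 (n = 13), but this rank came from single cells. Monocytes exceeded ECs in 5 of 13 libraries for S100a8 and 2 of 13 for S100a9, and the order of these types was not resolved (adjusted p = 0.9797 and 0.959, exact paired permutation test). In O FIS F2 monocytes S100a8 was 4567 CPM, and 1 of 55 cells held 99.8% of the S100a8 and S100a9 UMIs (6214 of them). In Y VEH M1 S100a8 was 422 CPM, and 1 of 29 cells held 86.1% of those UMIs (211). This cell of Y VEH M1 carried at least 2 neutrophil markers, and that of O FIS F2 did not. The other 11 libraries lay between 0 and 89.6 CPM for S100a8. The step from neutrophils to monocytes was 11.3 on the log2 scale for S100a8 (adjusted p = 0.00342, exact paired permutation test over libraries) and 11.8 for S100a9 (adjusted p = 0.00171, same exact test).

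In ECs the calgranulins averaged 35.7 CPM (S100a8) and 42.9 CPM (S100a9). EC S100a8 in young libraries was 4.51, 2.20, 25.6 and 2.38 CPM with vehicle and 5.44, 10.3, 0 and 0.19 CPM with fisetin. In old ones it was 58.4, 145.9 and 23.8 CPM with vehicle and 45.7, 10.96, 161 and 39.4 CPM with fisetin. Most old libraries lay above the young ones, but Y VEH M1 lay above O VEH M1 and O FIS F2. The log2 difference between O VEH and Y VEH was 3.08 (SE 1.34, adjusted p = 0.505, edgeR) for S100a8 and 2.81 (SE 1.28, adjusted p = 0.529, edgeR) for S100a9, so neither passed, and 0.0497% of EC genes did.

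Few ECs carried many of these UMIs, although 35.7% of ECs in O VEH F1 held at least 1. Of 55976 ECs, 74 held more than 3 UMIs of both genes together and 13 held more than 30, and each of those 13 also carried at least 2 neutrophil markers. In O FIS M1, 4 of 5271 ECs held 92.0% of the EC calgranulin UMIs, and in O VEH F2 2 of 4151 held 90.9%. These were the highest shares. ECs with more than 3 such UMIs held 24.9% of them in O VEH F1, 6.83% in O FIS F1 and 2.30% in Y VEH M1. Over all cells outside the neutrophil gate, 154 had more than 100 calgranulin UMIs, and 148 of them carried at least 3 neutrophil markers. Non-myeloid cells with 2 or more neutrophil markers or more than 3 calgranulin UMIs are called mixed cells here, so that some may carry no neutrophil marker. Whether they are doublets was not tested.

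With all cells kept, calgranulin levels outside neutrophils were mostly a small share of the library's own. The median EC level was 1.73% (S100a8) and 1.96% (S100a9) of the whole-library level, reaching 38.2% and 30.7% in the highest library. Fibroblasts had a median of 1.11% for both genes, B cells 1.13% and 1.32%, T cells 1.09% and 1.25% and vascular smooth muscle cells (VSMCs) 1.12% and 1.46%. S100a9 was higher in ECs than in B cells in 14 of 15 libraries, by 0.86 on the log2 scale (adjusted p = 0.00171, exact paired permutation test). Cells of these types differed in depth, with medians of 3734 UMIs in ECs and 6893 in B cells. CPM divides each level by that depth, and the part of depth in this step was not tested. RNA set free from broken cells enters droplets of every type, and its part in these levels was not tested.

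Across the 15 libraries log2(CPM + 1) of the calgranulins rose with the log2 share of UMIs from neutrophils in all 5 types. In ECs this gave r = 0.751 and rho = 0.749 for S100a8 (permutation p = 0.00027 and 0.00185, adjusted p = 3e-04 and 0.00185 over 10 relations) and r = 0.789 and rho = 0.752 for S100a9 (permutation p = 0.00022 and 0.00172, adjusted p = 0.000275 and 0.00185). Without Y FIS M1 and Y FIS M2, the libraries farthest from the median, the EC r values were 0.589 and 0.594 (permutation p = 0.0356 and 0.0336). In fibroblasts r was 0.841 and 0.873, and 0.863 and 0.854 without those libraries (permutation p = 0.00012 and 0.00018). Within groups the EC relation was not found. As deviations from group means over the 13 libraries with neutrophils r in ECs was 0.203 and 0.220 (permutation p = 0.504 and 0.468), whereas fibroblasts, VSMCs, B cells and T cells gave 0.702 to 0.891 (adjusted permutation p = 0.0097 or lower). Leaving out mixed cells selects cells partly by the calgranulins themselves, so low levels are then fixed by the choice. As a description, the EC r values over the 15 libraries were then 0.852 and 0.887.

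**Figure D2:**
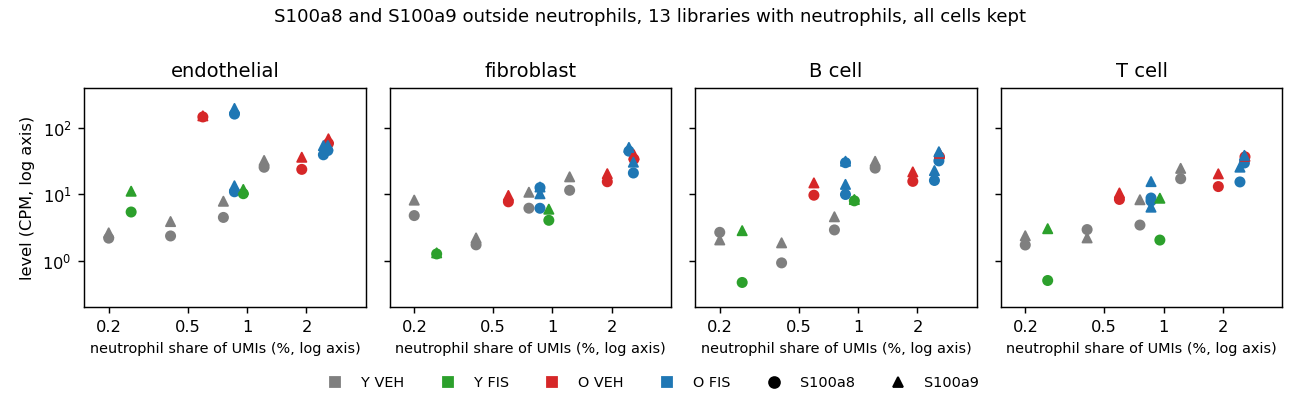
S100a8 (circles) and S100a9 (triangles) CPM in ECs, fibroblasts, B cells and T cells of the 13 libraries with neutrophils, against the percent of the library's UMIs that came from neutrophils, both on log axes, with all cells of each type kept and colours marking the groups. Each point is a library. Points climb from the lower left to the upper right in fibroblasts, B cells and T cells, and scatter more in ECs, where O VEH F2 (145.9 CPM of S100a8) and O FIS M1 (161 CPM) stand above the rest.

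The ratio of S100a8 to S100a9 was also compared between types. It was 0.795 ± 0.063 in neutrophils (n = 13), 0.757 ± 0.137 in ECs (n = 13, adjusted p = 0.431, exact paired permutation test) and 0.754 ± 0.139 in fibroblasts. None of 6 types passed the test against neutrophils, macrophages being the farthest at 0.983 (n = 9, adjusted p = 0.431, exact). A missed threshold does not show equal ratios. Other neutrophil RNAs were measured in ECs as a median share of their neutrophil level, with mixed cells left out, where S100a8 had 0.0174% and S100a9 0.0190%. That choice caps the calgranulins directly. Wfdc21 (0.0205%) and Stfa2l1 (0.0197%) were near them, Ngp (0.0491%), Asprv1 (0.0534%), Camp (0.0732%) and Ltf (0.147%) were higher, and Ifitm6 (0.859%) and Lcn2 (1.21%), a siderophore-binding protein, were the highest of the 8. With all cells kept, Lcn2 differed between EC subsets. It ran from 213 (Y VEH F1) to 1129 CPM (O FIS M1) in lymphatic ECs. In capillary ECs it ran from 0.554 (O FIS F2) to 25.5 CPM (O VEH F2).

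S100a8 lay higher in O VEH than Y VEH in 10 of 11 types and S100a9 in 11 of 12, none of which passed the test. Neutrophils made up 1.02 ± 0.73% of Y VEH cells, 0.526 ± 0.759% of Y FIS cells, 2.09 ± 0.84% of O VEH cells and 2.10 ± 1.14% of O FIS cells. O VEH exceeded Y VEH by 1.06 percentage points (exact permutation p = 0.143, two-sided, smallest possible 0.0286). O FIS and O VEH differed by 0.0151 points (exact permutation p = 1), and Y FIS lay 0.498 points lower than Y VEH (exact permutation p = 0.343). The latter difference was 0.0281 points the other way without the male Y FIS libraries, which had no gated neutrophils. It was -0.859 without Y FIS F2, -0.184 without Y VEH M1 and -0.322 without either male Y FIS library alone. In whole aortas S100a8 differed by 1.67 on the log2 scale between O VEH and Y VEH (SE 1.61, adjusted p = 0.771, edgeR).

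S100a4 was highest in monocytes, at 1909 ± 385 CPM (n = 13), 1.49 above dendritic cells on the log2 scale (704 ± 326 CPM, adjusted p = 0.00342, exact paired permutation test). Glial cells (677 CPM), macrophages (588), T cells (557) and NK cells (463) followed with no step between neighbours that passed the test. VSMCs (320 CPM) lay above B cells (159 CPM) by 1.75 (adjusted p = 0.0137, exact). ECs had 42.2 CPM, but arterial ECs had 201 ± 117 CPM against 36.8 in capillary and 32.4 in luminal ECs. Neutrophils had 31.0 CPM and plasma cells 10.9 CPM. Over the 15 types its closest genes were Nr4a2 (r = 0.85), Pot1b (0.82) and Ube2f (0.82), among 8080 genes. The highest of so many correlations over 15 types can be large by chance. Here and for the other members they were not tested.

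S100a6 was broad. Neutrophils held 6068 ± 1758 CPM, 0.87 above fibroblasts on the log2 scale (3280 ± 277 CPM, adjusted p = 0.00171, exact paired permutation test). Mesothelial cells (2937 ± 523), glial cells (2534), monocytes (1969), VSMCs (1622) and pericytes (1556) came next. ECs were at 523 ± 64.5 CPM, 3.11 above plasma cells (adjusted p = 0.00171, exact), which held 79.0 CPM. Within ECs the level was 1198 ± 226 CPM in arterial, 796 in lymphatic, 628 in luminal and 433 ± 85.9 in capillary cells. Ksr1, Anxa2 and Chp1 (r = 0.92 each) were its closest genes, and Anxa2, annexin 2, is the partner of S100a10. S100a11 came at rank 9 (r = 0.89).

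S100a10 had another order. It was highest in mesothelial cells (1398 ± 272 CPM), fibroblasts (1191 ± 247) and NK cells (1140), whose order was not resolved. T cells (842 CPM) lay 0.50 above macrophages (599 CPM, adjusted p = 0.0456, exact paired permutation test), and monocytes (388 CPM) lay 1.70 above VSMCs (120 CPM, adjusted p = 0.00342, exact). Neutrophils were low, with 502 CPM in Y VEH F1 and 18.5 to 68.0 CPM in the other 12 libraries. Lymphatic ECs (943 CPM) and luminal ECs (786) exceeded capillary ECs (440) in mean. Ormdl2 and Ppp1r14b (r = 0.89) and Erap1 (0.88) were closest to it.

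S100a11 was once more highest in neutrophils, at 5439 ± 466 CPM, where libraries ran only from 4637 to 6222 CPM. Mesothelial cells (1018 ± 226 CPM) were 2.44 lower on the log2 scale (adjusted p = 0.00456, exact paired permutation test). Dendritic cells (889), fibroblasts (793), pericytes (679) and VSMCs (558) followed, with fibroblasts 0.23 above pericytes and pericytes 0.28 above VSMCs, both past the test. Lymphatic ECs had 809 CPM, luminal 564 and capillary 219. R3hdm4 (r = 0.96) and Slc35a5 (0.95) were among the genes closest to it. Of 84 steps between neighbouring types over all members, 16 passed.

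Age was tested in 22 populations, which are the 15 types, 6 subsets of ECs and T cells, and the whole aorta. Between O VEH and Y VEH 3 of 125 member tests passed (39 at an unadjusted p under 0.05, 9 with DESeq2), where 0.544% of all tests did. All 3 were in CD8 T cells, and in that population 4.89% of 9964 genes were called and 3.52% were called higher. In the 15 types alone 0 of 83 passed (20 at an unadjusted p under 0.05, 3 with DESeq2), against a background of 0.453%. The comparisons with Y VEH share that group.

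In CD8 T cells S100a6, S100a10 and S100a11 rose with age. S100a6 measured 185, 131, 317 and 499 CPM in Y VEH and 306, 521, 152 and 223 CPM in Y FIS libraries. It measured 2022, 1679 and 1216 CPM in O VEH and 1040, 1558, 1974 and 1301 CPM in O FIS libraries. All 7 old libraries lay above all 8 young ones. Here and below, the share of all genes whose libraries separate in this way is not given. Separation was therefore not compared with a background. The log2 difference between O VEH and Y VEH was 2.53 (SE 0.43, adjusted p = 0.00392, edgeR).

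S100a10 was 365, 448, 533 and 513 CPM in Y VEH and 1057, 996 and 635 CPM in O VEH, without overlap, which is 0.86 higher on the log2 scale (SE 0.23, adjusted p = 0.0391, edgeR). S100a11 was 130, 163, 209 and 238 CPM in Y VEH and 568, 447 and 231 CPM in O VEH, which is 1.10 higher (SE 0.30, adjusted p = 0.0429, edgeR), and O VEH M1 lay within the Y VEH range. S100a4 was 71.5, 28.2, 88.7 and 139 CPM in Y VEH against 611, 673 and 180 CPM in O VEH, without overlap, and missed the threshold (2.41, SE 0.72, adjusted p = 0.0659, edgeR), which it passed with no sex term (adjusted p = 0.0446) and without the male Y FIS libraries (adjusted p = 0.00991). S100a6 passed in all 27 alternative settings, with log2 fold changes of 2.20 to 2.86. S100a10 passed in 18 and S100a11 in 16 of them. Both calls were lost without any one of Y VEH F1, Y VEH F2, Y FIS F1, Y FIS M2, O VEH F1 or O VEH F2, that of S100a10 also without Y VEH M2 and that of S100a11 also without Y FIS F2 or Y VEH M1. Both were lost as well when the replicate number replaced sex in the fit (replicate block) or when only the groups compared were fitted. That of S100a11 was also lost without both male Y FIS libraries. The adjusted p-values reached 0.158 for S100a10 and 0.201 for S100a11 over the settings (edgeR).

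**Figure D3:**
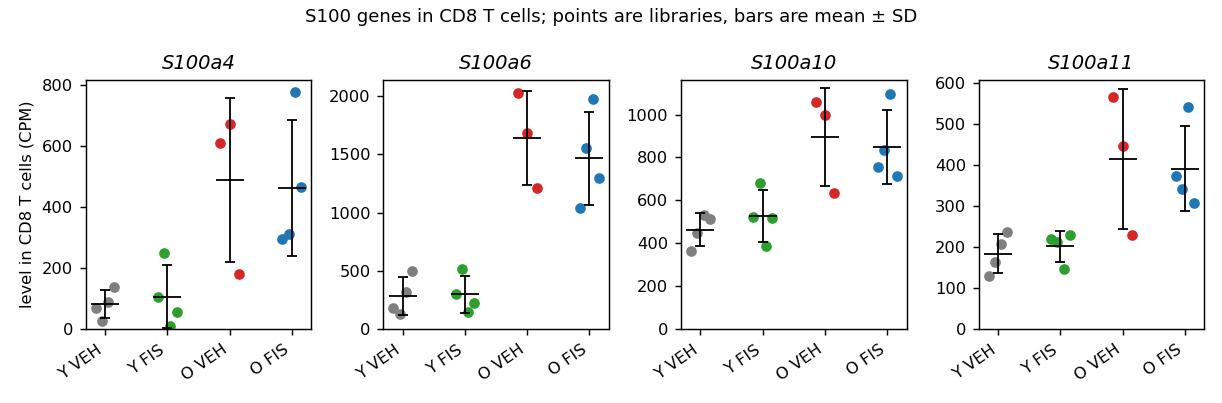
Level in CPM of S100a4, S100a6, S100a10 and S100a11 in CD8 T cells by group; points are libraries, bars mark the mean and lines the SD over 4 libraries (3 in O VEH). For S100a6 all old libraries (1040 CPM and above) sit above all young ones (521 CPM and below), and O FIS overlaps O VEH in all 4 panels.

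O FIS against Y VEH, with the same Y VEH libraries, gave 5 calls of 125 (42 at an unadjusted p under 0.05, 11 with DESeq2) against 0.403% of all tests. Of these 4 were in CD8 T cells, where 2.54% of genes were called. S100a6 was 2.38 higher on the log2 scale (adjusted p = 0.00698, edgeR), S100a4 2.50 (adjusted p = 0.0454), S100a10 0.83 (adjusted p = 0.0414) and S100a11 1.05 (adjusted p = 0.0458). O FIS CD8 T cells had 296, 311, 778 and 466 CPM of S100a4, 755, 836, 1095 and 713 CPM of S100a10 and 373, 341, 543 and 309 CPM of S100a11. For each of these genes every O FIS library lay above every Y VEH library, again with no share of all genes to compare. The calls other than S100a6 each needed most libraries, and over the settings adjusted p-values reached 0.175 for S100a4, 0.173 for S100a10 and 0.201 for S100a11 (edgeR). All were lost without any one of Y VEH F1, Y VEH F2, Y FIS F1, Y FIS M2, O FIS M1 or O FIS M2, S100a4 also without Y VEH M1, O VEH F1 or O VEH F2, S100a10 also without Y VEH M2 or O FIS F2, and S100a11 also without Y FIS F2, Y VEH M1, Y VEH M2, O FIS F1, O FIS F2 or O VEH F2. A looser gate and the replicate block also lost these calls. So did no sex term for S100a4 and S100a11, the male Y FIS libraries left out for S100a10 and S100a11, and a stricter gate or deep cells left out for S100a4.

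Genes of T cell state moved in the same cells. Of 10 effector genes 7 passed as higher in O VEH than Y VEH, where 3.52% of CD8 T cell genes were called higher. Among them were Gzmk, a granzyme (log2 fold change 3.31), the chemokine Ccl5 (2.19) and Cd44 (1.17). The list median was 1.30 where the median of all genes was -0.017. Of 8 naive genes 3 passed as lower (list median -0.85), namely Igfbp4 (-2.11), Tcf7 (-1.09) and Lef1 (-0.97), where 4.89% of genes were called in either direction. To look within, cells were split by which list led, a split chosen after these values were seen. Cells in which effector genes led made up 6.27% to 29.3% of CD8 T cells in Y VEH and 53.6% to 79.3% in O VEH (exact permutation p = 0.0286, the smallest possible, and 0.286 adjusted over 60 comparisons). The lists had already differed between these same libraries, so this share is a description and its p-value gives no separate support.

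Within the split no level passed after adjustment, and among CD8 T cells S100a6 of naive-leading cells was the one whose groups did not overlap. S100a6 in naive-leading CD8 T cells was 62.9 to 92.8 CPM in Y VEH (mean 77.5 ± 15.4, n = 4) and 489 ± 289 CPM (n = 3) in O VEH, where the lowest library had 197 CPM (exact permutation p = 0.0286, adjusted 0.286). In effector-leading cells it was 1189 ± 399 against 2130 ± 559 CPM (exact permutation p = 0.0857). S100a4 was 12.2 CPM in Y VEH and 11.5 CPM in O VEH naive-leading cells, and 486 ± 170 against 715 ± 329 CPM in effector-leading ones. S100a10 was 385 against 426 CPM in naive-leading and 867 ± 160 against 1105 ± 309 CPM in effector-leading cells. S100a11 was 143 against 128 CPM in naive-leading and 375 ± 128 against 555 ± 239 CPM in effector-leading cells. The groups overlapped in each of these. O VEH F1 had only 12 naive-leading cells.

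**Figure D4:**
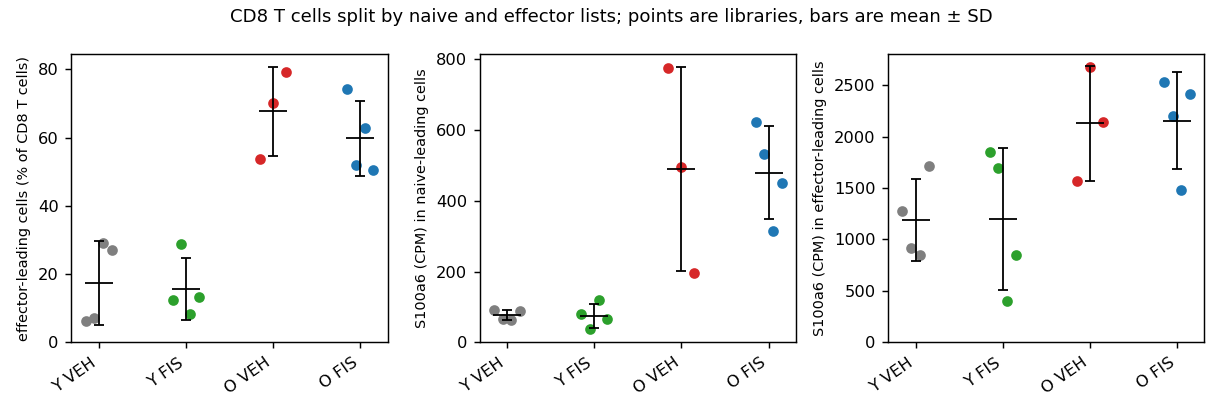
Left, the percent of CD8 T cells in which effector genes led, by group; middle and right, S100a6 in CPM in naive-leading and in effector-leading CD8 T cells. Points are libraries and bars the mean ± SD; the effector-leading share is 6.27% to 29.3% in Y VEH and 53.6% to 79.3% in O VEH, and S100a6 of naive-leading cells lies at or below 92.8 CPM in Y VEH and from 197 CPM up in O VEH.

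CD4 T cells ran in the same direction, and whether they passed depended on the setting. S100a6 was 697, 259, 879 and 618 CPM in Y VEH and 1748, 2383 and 1574 CPM in O VEH, which did not overlap (log2 fold change 1.53, SE 0.34, adjusted p = 0.0516, edgeR, with 0.614% of CD4 T cell genes called). It passed with no sex term (adjusted p = 0.0308, edgeR), a stricter gate (0.0376), no cell filter (0.0491), deep cells left out (0.0209), mixed cells left out (0.0334) or the male Y FIS libraries left out (0.0372), and with DESeq2 (0.00314). S100a4 in CD4 T cells was 344 ± 205 CPM in Y VEH (n = 4) and 1427 ± 339 CPM in O VEH (n = 3), 1.93 higher on the log2 scale in O VEH (adjusted p = 0.191, edgeR, and 0.0382 without the male Y FIS libraries). At a fixed 1000 UMIs per cell the share of CD8 T cells with an S100a6 UMI was 17.0 ± 7.30% in Y VEH and 59.9 ± 4.36% in O VEH (exact permutation p = 0.0286, lowest adjusted p = 0.432 over 408 comparisons).

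Outside T cells the only S100a10 call of the main fit was in fibroblasts, in O FIS against Y VEH. S100a10 in young fibroblasts was 1391, 1697, 1312 and 1290 CPM with vehicle and 1375, 1123, 1408 and 1439 CPM with fisetin. In old fibroblasts it was 998, 1170 and 951 CPM with vehicle and 1007, 939, 837 and 925 CPM with fisetin. Every old library but O VEH F2 was below every young one. It was lower in O FIS than Y VEH, at -0.65 on the log2 scale (SE 0.12, adjusted p = 0.0179, edgeR, where 1.7% of fibroblast genes were called), and -0.51 in O VEH against Y VEH did not pass (SE 0.13, adjusted p = 0.102, edgeR, with 0.504% called). The call was lost without Y VEH F2, O FIS M1 or O FIS M2, at adjusted p-values up to 0.0642. Over the types S100a10 lay lower in O VEH than Y VEH in 12 of 15 (median -0.27, against -0.0061 for all genes). Of these 5 had an unadjusted p under 0.05 (edgeR) and none passed. The types share libraries, and a general tendency was not tested.

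**Figure D5:**
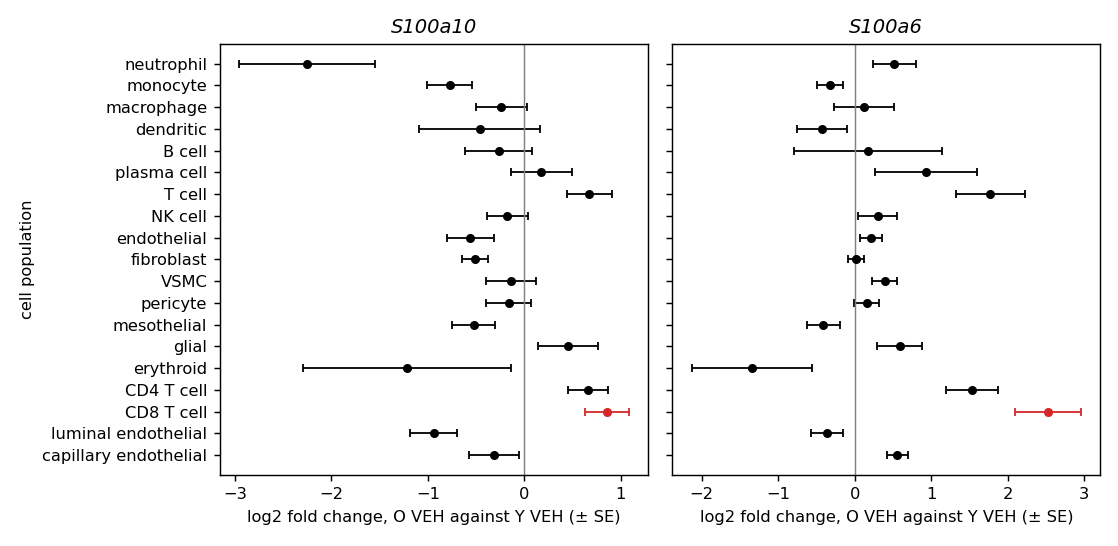
Log2 fold change of S100a10 and S100a6, O VEH against Y VEH, in 19 populations; points are edgeR estimates, bars their SE, and red marks those past the test. CD8 T cells are red for both genes, at 0.86 for S100a10 and 2.53 for S100a6.

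Other differences with age did not pass by the test used throughout. S100a4 in VSMCs was 264, 218, 208 and 166 CPM in Y VEH and 392, 601 and 354 CPM in O VEH, without overlap (log2 fold change 1.00, SE 0.25, adjusted p = 0.0561, edgeR, with 1.07% of VSMC genes called). It passed when only the groups compared were fitted (adjusted p = 0.0164, edgeR), with mixed cells left out (0.0463) and with DESeq2 (0.0155). S100a6 in capillary ECs was 330, 364, 344 and 323 CPM in Y VEH and 496, 616 and 422 CPM in O VEH, also without overlap (0.56, SE 0.14, adjusted p = 0.238, edgeR, with 0.0595% of genes called). S100a10 in luminal ECs was 1083, 1383, 1071 and 704 CPM against 595, 713 and 493 CPM (-0.94, SE 0.24, adjusted p = 0.153, edgeR, with 0.0847% called). S100a6 in fibroblasts was level, at 0.01.

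In the main fit fisetin gave no member call in old mice, and calls without the gene filter are given below. In O FIS against O VEH 0 of 125 tests passed by edgeR (5 at an unadjusted p under 0.05, 0 with DESeq2), where 0.000459% of all tests did. In CD8 T cells the log2 differences were -0.15 for S100a6, 0.10 for S100a4, -0.02 for S100a10 and -0.05 for S100a11, and in neutrophils -0.09 for S100a8 and -0.04 for S100a9 (adjusted p = 1.00 for each, edgeR). In Y FIS against Y VEH 0 of 125 passed by edgeR (12 at an unadjusted p under 0.05, 0 with DESeq2), where the background was 0.000459%. There S100a8 was lower in 11 of 11 types and S100a9 in 12 of 12, with the male libraries that had no gated neutrophils in the group. The fisetin effect in old minus that in young passed in 0 of 125 tests by edgeR (12 at an unadjusted p under 0.05, 0 with DESeq2), as did 0% of all tests.

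Genes around the members were counted over the 15 types between O VEH and Y VEH, where 0.453% of all tests passed. Receptors and adaptors passed by edgeR in 0 of 133 tests, binding partners in 0 of 171, other S100 genes in 0 of 42 and neutrophil genes outside the gate in 0 of 32. Nothing particular to these lists can be read from that. In CD8 T cells, with 4.89% of genes called, 2 of 12 binding partners were higher, list median 0.58, the galectins Lgals3 (log2 fold change 3.03) and Lgals1 (1.42), and 1 of 3 other S100 genes, S100a13 (0.69), while 0 of 8 receptors passed. In O FIS against O VEH none of these lists had a call by edgeR.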

How the data were processed

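The values the authors deposited were unnormalized UMI counts of each gene in each cell; the labels name Cell Ranger 8.0.1, Seurat 5.2.0 and the GRCm39 build. Members and gene lists were chosen with earlier results of these data known. A cell joined a type with at least 3 of its markers and 2 more than any other type had. Subsets needed 2 markers, and T cells were split by Cd4 against Cd8a and Cd8b1, after this rule for types. No doublet caller was run. A cell carrying markers of 2 types was still gated where the leading type met this rule, and otherwise stayed ungated. Counts were summed per library and type (at least 10 cells, 2 libraries per group) and fitted over all 15 libraries with group and sex. This used edgeR 4.0.16 (quasi-likelihood, TMM, low-count filter). Calls needed an adjusted p under 0.05, a log2 fold change beyond 0.25 and, between 2 groups, detection in over 10% of cells of either group. Shares of all tests count every gene tested, also those under that detection, which could not be called. DESeq2 1.42.0 was an alternative, as were other gates, no filters, no sex term, the replicate block and each library left out. Neutrophil fits lacked Y FIS M1 and M2. Named genes were the members, list genes past the test and each member's 3 closest genes, of which 1 is not reported here. Single values had permutation tests (100000 resamples, or exact). Intervals and limits cover counting error only. Scripts ran in Python 3.11.15 and R 4.3.3 and were tested on simulated data.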

Additional observations from a re-analysis of the deposited data

Results flagged for a closer look

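Of 64 groups of 4 libraries examined, 9 had a library that stood far from the other 3 in a member's level. Chance gives about 1 in 20 for independent, normally spread values. These groups share libraries, and many levels lie near 0 CPM, so that rate is only a rough guide. Not every member and type was among the 64, such as S100a4 in neutrophils. S100a8 in neutrophils was 34046 CPM in Y VEH F1, against 56528 to 59874 CPM in the other Y VEH libraries. S100a8 in ECs was 25.6 CPM in Y VEH M1, against 2.20 to 4.51 CPM. In B cells S100a8 was 24.8 CPM in Y VEH M1, against 0.936 to 2.93 CPM, and 8.01 CPM in Y FIS F2, against 0 to 0.475 CPM. Y VEH M1 had the highest neutrophil share of the Y VEH libraries and Y FIS F2 that of the Y FIS libraries, whose part in these values was not tested.

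In monocytes of Y VEH M1 S100a8 was 422 CPM, against 0 to 5.73 CPM, and S100a9 was 201 CPM, against 0 to 4.21 CPM. In monocytes of O FIS F2 S100a8 was 4567 CPM, against 37.8 to 89.6 CPM, and S100a9 was 4966 CPM, against 12.9 to 34.5 CPM. A single cell held 86.1% and 99.8% of the calgranulin UMIs in these samples. S100a10 in luminal ECs was 1507 CPM in Y FIS F1, against 635 to 726 CPM in the other Y FIS libraries.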

How the results depend on the processing

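The number of member calls moved with the settings. Shares of all genes called under the other settings are not given, so these counts were not compared with a background. Between O VEH and Y VEH the 3 calls became 33 with no gene filter, 5 with no sex term, 9 with DESeq2, 5 with mixed cells left out and 7 without the male Y FIS libraries (both chosen after seeing the data), and 1 to 6 with each library left out. A single call, S100a6 in CD8 T cells, was left without Y VEH F1, Y VEH F2, Y FIS M2, O VEH F1 or O VEH F2. Between O FIS and Y VEH the 5 calls became 33 with no gene filter, 3 with no sex term, 11 with DESeq2, 2 with a looser gate and 1 to 5 with each library left out. Without the gene filter, O FIS against O VEH went from 0 to 5, Y FIS against Y VEH from 0 to 2 and the difference of fisetin effects from 0 to 12, and the SE of S100a6 in CD8 T cells fell from 0.43 to 0.19. In the replicate block fit the calls were 1 and 2, namely S100a6 in CD8 T cells in both comparisons and S100a10 in fibroblasts for O FIS. Replicate numbers were not taken to pair the libraries, under a rule that asked all same-numbered pairs to correlate over 0.1. Their deviations from group means correlated at -0.52 to 0.44 over whole aortas, -0.51 to 0.47 in T cells and -0.25 to 0.69 in ECs. Of 21 pairs 9, 12 and 13 were over 0.1, and 3, 3 and 5 were with sex also taken out. Whether same-numbered libraries shared a batch was not tested.

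The neutrophil share of O FIS against O VEH, 0.0151 points, became -0.465 without O VEH F2, -0.299 without O FIS F1 and -0.326 without O FIS M2 (-0.465 to 0.383 over single libraries), and that of Y FIS against Y VEH went from -0.498 to 0.0281 without the male Y FIS libraries. S100a6 in CD8 T cells held its calls in 27 of 27 settings in both age comparisons. S100a4 against Y VEH in O FIS held in 13, S100a10 in 16 and S100a11 in 11, and no call reversed. Under DESeq2, S100a6 in T cells, CD4 T cells and capillary ECs, S100a4 in VSMCs and S100a10 in fibroblasts and luminal ECs also passed between O VEH and Y VEH. The causes were not tested. Pools of mice, O VEH with 3 libraries and rare types (28 neutrophils in Y VEH F2) limit the precision.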

Other observations

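S100a6 varied more between libraries in B cells than with group. It was 3645, 703, 66.6 and 1833 CPM in Y VEH and 1198, 1100, 188 and 95.0 CPM in Y FIS libraries. In O VEH libraries it was 617, 1916 and 2560 CPM, and 1305, 1682, 1046 and 1905 CPM in O FIS. The 3 libraries under 200 CPM (Y VEH M1, Y FIS M1 and Y FIS M2) had 473, 694 and 610 CPM of Ighd, the IgD heavy chain of naive B cells, and 9.59, 7.58 and 6.80 CPM of Bhlhe41, a factor of B-1 cells. Y VEH F1, the highest, had 203 CPM of Ighd and 53.6 CPM of Bhlhe41. Some other libraries followed this and some did not. O VEH F2 and O FIS F2, at 1916 and 1682 CPM of S100a6, had 79.9 and 48.7 CPM of Ighd. Their Bhlhe41 was 129 and 141 CPM. O VEH F1, at 617 CPM of S100a6, had 134 CPM of Ighd and 128 CPM of Bhlhe41. Y FIS F1 and Y FIS F2, at 1198 and 1100 CPM of S100a6, had 552 and 543 CPM of Ighd, and O FIS M2, at 1905 CPM, had 433 CPM. Bhlhe41 in these libraries was 27.6, 25.1 and 61.4 CPM. These genes were chosen after their values were seen, and the relation was not tested.

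Lcn2 in luminal ECs was 12.5, 3.93, 15.4 and 7.40 CPM in Y VEH, 94.4, 36.2 and 74.8 CPM in O VEH and 60.7, 36.5, 54.5 and 42.3 CPM in O FIS. O VEH lay above Y VEH in all libraries, at 2.88 on the log2 scale (SE 0.43, adjusted p = 0.0115, edgeR, with 0.0847% of luminal EC genes called). Among cytokines, Ccl4 was higher in T cells of O VEH than Y VEH (3.47, adjusted p = 0.0231, edgeR) and Ccl3 lower in neutrophils (-1.33, adjusted p = 0.0433, edgeR).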
